A study of Mus musculus with 16 samples.

Results

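Bone matrix and mineralization genes were followed in mouse osteosarcomas with and without floxed *Arid1a* alleles. The 10 genes, chosen by symbol from the 25054 genes of the raw count table, were *Spp1*, *Ibsp*, *Bglap*, *Bglap2*, *Sparc*, *Alpl*, *Phospho1*, *Smpd3*, *Enpp1* and *Ank*. All 10 had enough counts to be tested. The KO group held 8 tumors from 8 mice that carried OsxCreERT2+/- and the floxed alleles p53fl/fl, Rb1fl/fl and Arid1afl/fl, and for which no tumor site was given. The WT group held 8 tumors from mice with OsxCreERT2+/-, p53fl/fl and Rb1fl/fl, so WT refers to *Arid1a* only and both groups carried floxed *p53* and *Rb1*. The WT tumors came from 4 mice: N42 gave 4 (right pelvis, right femur, left limb and left shoulder), N43 gave 2 (spine and pelvis), N215 gave 1 from the right hind limb, and N25 gave 1 labeled lung. Mice of both sexes were older than 6 months, and all had received tamoxifen at 1 month of age, intraperitoneally, at 400 ug per gram from a 20 mg/mL solution. Cre was driven by Osterix (*Sp7*) sequences and was therefore aimed at cells of the osteoblast lineage, while the RNA came from whole tumor tissue with its host cells. Strain was not stated, and the KO tumors are named here by their mouse.

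Osteoblasts lay down a collagen scaffold and bind mineral to it through acidic and calcium-binding matrix proteins. Mineral forms where phosphate is released and pyrophosphate, an inhibitor of crystal growth, is removed, and tissue-nonspecific alkaline phosphatase (*Alpl*) does both. *Phospho1* and *Smpd3* supply phosphate from membrane lipid, whereas *Enpp1* makes pyrophosphate and *Ank* raises its extracellular level. These genes mark osteoblast maturation in bone and are read in osteosarcoma as a sign of how much bone-forming activity a tumor keeps.

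The libraries differed in ways that touch these values. Total counts ran from 1109487 to 15059640 in KO and from 7806160 to 16962329 in WT, and 3 counts, the limit that a count of 0 allows, equaled 6.61 CPM (counts scaled to a common library total) in Massa, 4.0 in Grilka and at most 0.834 in any other tumor. *Arid1a*, the floxed gene, lay at 106 to 268 CPM in KO and 125 to 232 in WT (log2 fold change 0.16, SE 0.22, edgeR adjusted p = 0.715), so whole-gene counts gave no check of the genotype labels. *Sp7*, the osteoblast factor whose sequences drive Cre, had 0 counts in Massa and 2 counts in Prince, and stood at 3.80 CPM in Montana and 5.07 CPM in N25, against 11.7 to 226 CPM in the other 12 tumors. Genes of other tissues stood out in several libraries: summed lung genes reached 24250 CPM in N25 and 10983 in Massa against at most 9.32 elsewhere, and summed skeletal muscle genes reached 281442 CPM in Oregon and 243367 in Montana against at most 29044 elsewhere. Summed salivary gland genes reached 9008 CPM in Prince against at most 53.5 elsewhere, and summed liver genes 1176 CPM in Zelda against at most 24.2 elsewhere.

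The promoters of *Bglap*, *Spp1* and *Ibsp* are shown because these genes encode proteins of the bone matrix, and RUNX2 and other osteoblast factors are known to act through sequences of this kind. Each line gives the 250 bases before the RefSeq transcription start, 5′ to 3′ on the gene's own strand, build GRCm38.p6, at chr3:88384467-88384716 (minus strand), chr5:104434861-104435110 (plus) and chr5:104299037-104299286 (plus). Capitals mark every match to 3 motifs searched on both strands: the core of the RUNX site, TGTGGT, the TATA box, searched as TATAAA, and the CCAAT box. A capital run that reads otherwise is the reverse complement of its motif. No matches overlapped one another.
Bglap: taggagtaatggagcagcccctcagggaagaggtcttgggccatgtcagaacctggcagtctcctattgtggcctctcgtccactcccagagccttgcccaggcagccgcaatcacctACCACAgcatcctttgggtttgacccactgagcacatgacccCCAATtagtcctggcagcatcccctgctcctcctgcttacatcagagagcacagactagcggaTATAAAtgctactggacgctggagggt
Spp1: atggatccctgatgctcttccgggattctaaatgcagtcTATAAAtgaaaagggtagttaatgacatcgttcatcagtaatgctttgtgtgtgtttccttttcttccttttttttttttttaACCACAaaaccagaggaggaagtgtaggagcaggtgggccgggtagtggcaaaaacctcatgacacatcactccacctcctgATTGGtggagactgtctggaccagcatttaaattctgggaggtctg
Ibsp: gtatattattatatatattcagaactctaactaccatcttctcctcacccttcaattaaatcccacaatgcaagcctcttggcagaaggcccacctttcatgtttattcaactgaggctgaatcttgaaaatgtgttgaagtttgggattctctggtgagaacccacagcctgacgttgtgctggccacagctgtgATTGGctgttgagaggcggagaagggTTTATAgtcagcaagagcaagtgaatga
The RUNX core began at position -132 in *Bglap* and -128 in *Spp1*, counted back from the start, and these letters were not found in the *Ibsp* window. A TATA box began at -27 in *Bglap*, -28 in *Ibsp* and -211 in *Spp1*, and a CCAAT box at -90, -54 and -46, respectively. RefSeq windows were found for 8 of the 10 genes, not for *Bglap2* or *Smpd3*. The RUNX core was in 3 of those 8 (the third was *Enpp1*), and in 14.05% of all 32851 mouse windows of that length. A TATA box was in 3 of 8 against 12.4% of all windows, and a CCAAT box in 4 of 8 against 33.8%, the fourth being *Phospho1*. A match describes the letters and is not evidence of a bound factor.

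The first question was whether these genes differed between KO and WT tumors. Of the 10 genes, 8 had lower fitted levels in KO and 2, *Phospho1* and *Smpd3*, had higher ones, where 44.1% of all tested genes were lower, but none passed an adjusted p of 0.05 in edgeR's quasi-likelihood test, where 4.01% of all 15413 tested genes passed (2.15% lower and 1.86% higher in KO). The median log2 fold change (KO minus WT) was -1.96 over the 10 genes and 0.10 over all tested genes. At an unadjusted p under 0.05 there were 7 of 10, against 23.0% of all tested genes, and all but *Phospho1* were lower in KO, against 9.75%. DESeq2 called 6 of the 10, all lower in KO (*Spp1*, *Bglap*, *Sparc*, *Bglap2*, *Ank* and *Alpl*, adjusted p = 0.00992 to 0.0369), where it called 12.5% of all genes with an adjusted p, 4.77% lower in KO. With the counts of each mouse summed, with 1 tumor per mouse, or with mouse as a random effect in limma-voom, none of the 10 was called, where 0.0625%, 0.0940% and 0.110% of all genes were. Without the tumors of mouse N42, 4 of the 8 WT tumors, the median of the 10 genes was -1.07. Leaving out 1 tumor at a time, edgeR called *Spp1* (adjusted p = 0.0416) and *Bglap* (adjusted p = 0.0449) without N215, *Bglap2* (adjusted p = 0.0335) without Medusa, and none otherwise. Over all genes, edgeR called 923 without N215 and 482 without Medusa, against 618 with all tumors. N215 was a WT tumor with low values of these genes, so leaving it out favored lower calls in KO.

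**Figure D1:**
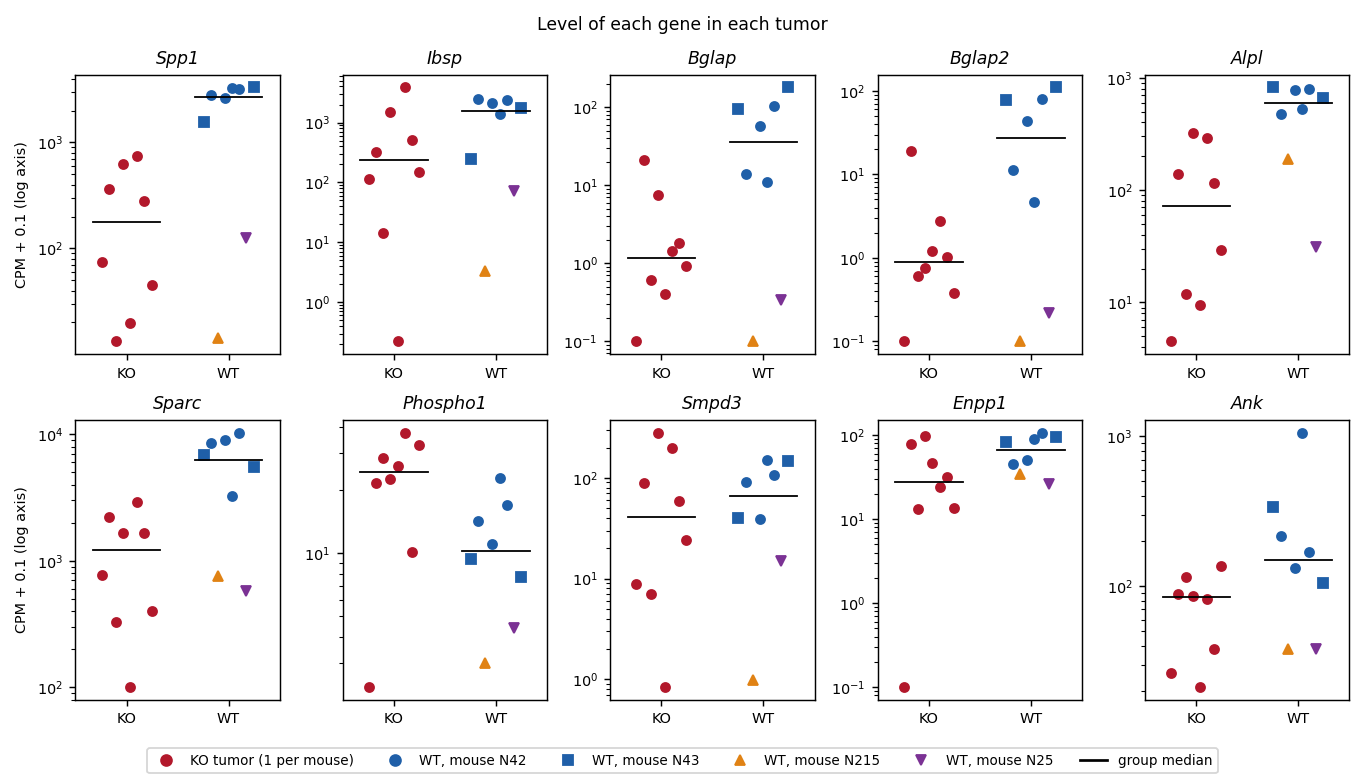
Level of each of the 10 genes in each tumor, as CPM plus 0.1 on a log axis, with KO tumors in red, WT tumors marked by mouse, and a black line at each group median. No gene separates the 8 KO from the 8 WT tumors, and N215 and N25 are the lowest 2 WT tumors for every gene.

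*Spp1* encodes osteopontin, an acidic phosphoprotein that binds mineral and cell-surface integrins. In KO it ran from 13.2 CPM in Montana to 746 in Grilka with a median of 178, and in WT from 14.04 in N215 to 3325 in the N43 pelvis tumor with a median of 2717. All 8 KO tumors lay below the WT median and below each of the 6 tumors of N42 and N43 (1556 to 3325 CPM), while N215 and N25 (126 CPM) fell among the KO values. Mean levels were 271 ± 288 CPM in KO and 2123 ± 1391 in WT (SD, n = 8 each), and the fitted log2 fold change was -2.95 (SE 0.96, edgeR adjusted p = 0.0826). The gene lies at chr5:104435118-104441050 on the plus strand of GRCm38, and 309 of its 1648 exon bases are also annotated to the predicted gene *Gm42793*. In bulk tissue, fewer cells of a type and less RNA per cell cannot be told apart, here or for any gene that follows.

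*Ibsp* encodes bone sialoprotein, a matrix protein able to seed mineral, and sits on the same chromosome at chr5:104299171-104311469. Its spread in KO (SD 4.25 on the log2 CPM scale) was the widest of the 10 genes, from 0.123 CPM (2 counts) in Prince to 3888 in Grilka with a median of 236, and in WT it ran from 3.23 in N215 to 2506 in the N42 right pelvis tumor with a median of 1559. On TMM-scaled CPM the highest of all 16 tumors was therefore a KO tumor, and the lowest was one too. Grilka's value came from 2919 counts in a library of 1812818 with a scaling factor of 0.41. On unscaled library totals Ohio, the tumors of N42 and the N43 pelvis tumor lay above Grilka, and the highest was the N42 right pelvis tumor. Means of 810 ± 1335 and 1308 ± 1059 CPM (SD, n = 8 each) gave a log2 fold change of -0.68 (SE 1.21, edgeR adjusted p = 0.781). That sign was not stable: it was 0.10 with counts summed per mouse, 0.24 with 1 tumor per mouse and 0.70 without mouse N42. The N43 mouse alone spanned 244 CPM in its spine tumor and 1746 in its pelvis tumor.

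*Bglap* and *Bglap2* encode osteocalcin, the calcium-binding protein of mature osteoblasts, and lie side by side on chromosome 3 with *Bglap3*. *Bglap* had 0 counts in Massa and in the WT tumor N215, and elsewhere ran from 0.307 CPM in Prince to 20.8 in Medusa in KO (median of all 8, 1.08) and from 0.239 in N25 to 181 in the N43 pelvis tumor in WT (median of all 8, 35.8). *Bglap2* ran from 0 in Massa to 18.7 CPM in Medusa in KO (median 0.792) and from 0 in N215 to 110 in the N43 pelvis tumor in WT (median 27.3). Medusa alone among KO tumors reached the range of the 6 tumors of N42 and N43 for both genes. Ohio, the next KO tumor for *Bglap* at 7.41 CPM, had 7 counts of *Bglap2*. The log2 fold change was -3.67 for *Bglap* (SE 1.21, edgeR adjusted p = 0.0859) and -3.60 for *Bglap2* (SE 1.23, adjusted p = 0.0951), the lowest of the 10 genes. Without Medusa the *Bglap2* value was -5.50 (edgeR adjusted p = 0.0335), and without N215 the *Bglap* value was -3.82 (adjusted p = 0.0449).

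These paralogs share sequence, so their separate values are uncertain. Of the 50-base windows of annotated *Bglap* transcripts, 51.3% also occur in *Bglap2*, and 69.2% of *Bglap2* windows occur in *Bglap*. *Bglap3*, which had too few counts over the tumors to be tested, occurred at 157 CPM (2560 counts) in Prince and 11.3 CPM (101 counts) in N215 against at most 1.39 elsewhere. In those 2 tumors it held 99.1% and 100% of the counts of the 3 genes. With the 3 genes summed, the log2 fold change was -1.51 (SE 1.15, edgeR adjusted p = 0.455). That sum is not a check of shared sequence alone. In *Bglap3*, 4.04% of windows also occur in *Bglap* and 5.88% in *Bglap2*, while 19.3% and 37.9% of the windows of those genes occur in *Bglap3*. The *Bglap3* counts put Prince highest of the KO sums at 158 CPM, with Medusa next at 40.6. *Bglap* and *Bglap2* were not summed without *Bglap3*.

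*Sparc* encodes osteonectin, a collagen-binding glycoprotein made by osteoblasts and by many stromal cells, at chr11:55394500-55423183. It varied least of the matrix genes, from 101 CPM in Prince to 2934 in Grilka in KO (median 1220) and from 579 in N25 to 10220 in the N42 left shoulder tumor in WT (median 6226). All 8 KO tumors lay below the lowest of the 6 tumors of N42 and N43, 3263 CPM in the N42 left limb tumor, and 5 of them lay above N25. The means were 1265 ± 1019 and 5596 ± 3722 CPM (SD, n = 8 each), and the fitted log2 fold change was -2.13 (SE 0.71, edgeR adjusted p = 0.0881). *Sparc*, *Spp1* and *Ibsp* together held between 53.3% (Prince) and 95.8% (Massa) of the counts of the 10 genes. The 10 genes held 0.0244 to 0.631% of a KO library and 0.120 to 2.07% of a WT library.

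*Alpl*, the phosphatase that frees phosphate and removes pyrophosphate, ran from 4.41 CPM (2 counts) in Massa to 325 in Ohio in KO (median 72.1) and from 30.8 in N25 to 823 in the N43 spine tumor in WT (median 595). All 8 KO tumors were below each tumor of N42 and N43 (471 to 823 CPM), and 4 of them were below N25 as well. Means were 115 ± 129 and 534 ± 294 CPM (SD, n = 8 each), and the fitted log2 fold change was -2.20 (SE 0.79, edgeR adjusted p = 0.111). *Alpl* spans chr4:137741733-137796384 on the minus strand.

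*Phospho1* encodes a phosphatase of matrix vesicles that acts on phosphocholine, and its mean was higher in KO. It ran from 2.20 CPM (1 count) in Massa to 37.3 in Grilka in KO (median 24.2) and from 2.90 in N215 to 22.7 in the N42 left limb tumor in WT (median 10.1). On TMM-scaled CPM, Montana (28.4), Oregon (32.8), Prince (26.1) and Grilka (37.3) lay above all 8 WT tumors, and all 8 WT tumors lay below the KO median. On unscaled library totals, none of these KO tumors lay above the N42 left limb tumor, but another KO tumor, Ohio, lay just above it. The N42 left limb tumor lay above the KO median on those totals. Means were 22.6 ± 11.6 and 11.1 ± 6.62 CPM (SD, n = 8 each), and the fitted log2 fold change was 1.11 (SE 0.46, edgeR adjusted p = 0.160). Montana, Oregon and Prince are among the tumors with raised muscle or salivary gland genes, and without those 3 the value was 0.74. Of its 2029 exon bases, 1818 are also annotated to *Zfp652* on the same strand and 1708 to *Abi3* on the other, so its reads cannot be placed with certainty. *Zfp652* (log2 fold change 0.24, adjusted p = 0.651) and *Abi3* (0.63, adjusted p = 0.429) did not pass in edgeR.

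*Smpd3* encodes neutral sphingomyelinase 2, which releases phosphocholine, the substrate of *Phospho1*. In KO it ran from 0.736 CPM (12 counts) in Prince to 279 in Ohio with a median of 41.2, and in WT from 0.891 (8 counts) in N215 to 152 in the N42 left limb tumor with a median of 65.7. Ohio and Grilka (200 CPM) stood above every WT tumor, but on unscaled library totals only Ohio did. The log2 fold change was 0.18 (SE 0.91, edgeR adjusted p = 0.930), and it turned to -0.43 without Ohio and -0.13 without Grilka. *Smpd3* spans chr8:106252548-106337988 and shares 247 of 5232 exon bases with *Prmt7* on the opposite strand.

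*Enpp1*, the ectoenzyme that makes pyrophosphate from nucleotides, ran from 0 counts in Massa to 97.9 CPM in Ohio in KO (median 27.8) and from 26.3 in N25 to 106 in the N42 left shoulder tumor in WT (median 66.7). The 0 in Massa allows up to 6.61 CPM. The log2 fold change was -0.70 (SE 0.56, edgeR adjusted p = 0.482), and with library depth as a covariate it was 0.43. *Ank*, which encodes the membrane protein ANKH that raises extracellular pyrophosphate, ran from 21.2 CPM in Prince to 136 in Oregon in KO (median 84.2). In WT it ran from 38.0 in N25 to 1052 in the N42 left limb tumor (median 150). That tumor was more than 3 times the next WT value, 336 CPM in the N43 spine tumor, and the log2 fold change of *Ank* was -1.79 (SE 0.61, edgeR adjusted p = 0.0961) with it and -0.98 (adjusted p = 0.267) without it. Over all alternatives it ranged from -2.03 to -0.62, the last in limma-voom.

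**Figure D2:**
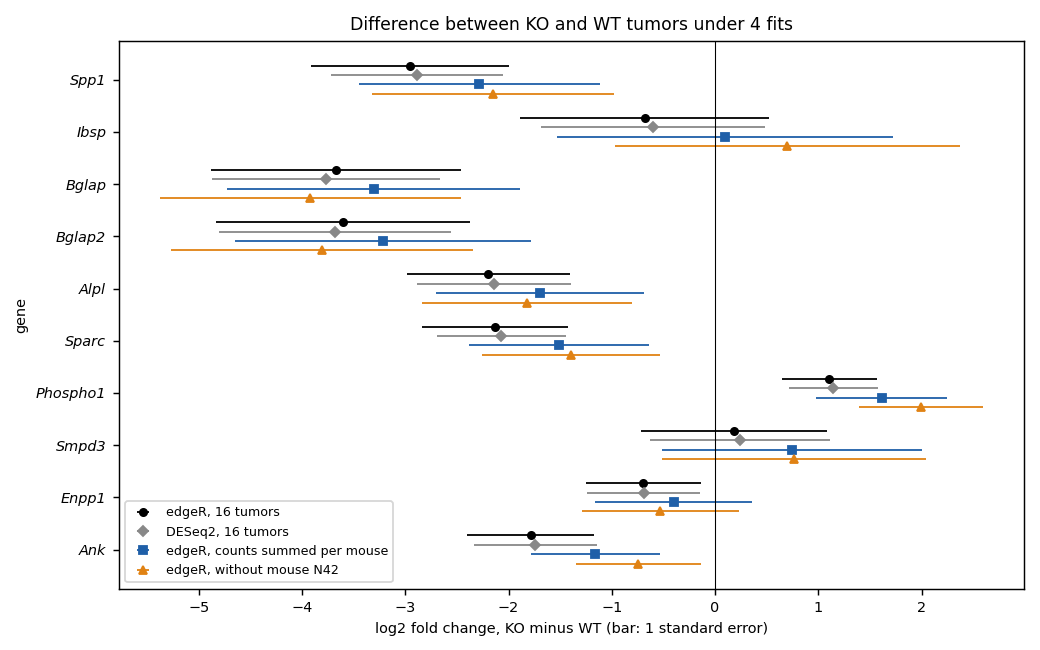
Log2 fold change (KO minus WT) of each gene with bars of 1 SE under 4 fits: edgeR on 16 tumors, DESeq2, counts summed per mouse, and without mouse N42. *Bglap*, *Bglap2*, *Spp1*, *Alpl*, *Sparc*, *Ank* and *Enpp1* stay below 0 in all 4 fits, whereas *Ibsp* lies on both sides of 0. The bars of *Enpp1* cross 0 with counts summed per mouse and without mouse N42.

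Ratios of genes within a tumor do not depend on the scaling of the library, and were taken as counts per kilobase of exon. Ranges cover tumors where both genes had more than 3 counts, and the tumors left out are named. The ratios were chosen with the values known and are given without a test. *Spp1* to *Ibsp* ranged from 0.241 (Grilka) to 1.42 (Medusa) with a median of 0.697 in 7 KO tumors, and from 1.41 (N42 right pelvis) to 8.01 (N43 spine) with a median of 2.30 in 8 WT tumors. The 8th KO tumor, Prince, had 318 counts of *Spp1* and 2 of *Ibsp*, a ratio of 199.5 (exact 95% interval 54.8 to 1655, counting error only), above every WT tumor. KO tumors thus lay on both sides of the WT range, 6 below it, Medusa just inside it and Prince above it. Of those below, Montana (1.17, on 52 and 56 counts) and Massa (0.82, on 34 and 52 counts) rest on few reads. No interval was taken for them, and the low end of the WT range is a single tumor. N215 (5.45) and N25 (2.20) lay inside the WT range although their levels of both genes were low. *Phospho1* to *Alpl* ranged from 0.137 to 5.56 (median 0.306) in 7 KO tumors and from 0.0224 to 0.277 (median 0.0365) in WT, without Massa, which had 1 and 2 counts of these genes. *Alpl* to *Enpp1* ranged from 0.507 to 30.7 (median 5.45) in 7 KO tumors and from 2.98 to 39.4 (median 18.4) in WT, with wide overlap, without Massa, which had 0 counts of *Enpp1*.

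**Figure D3:**
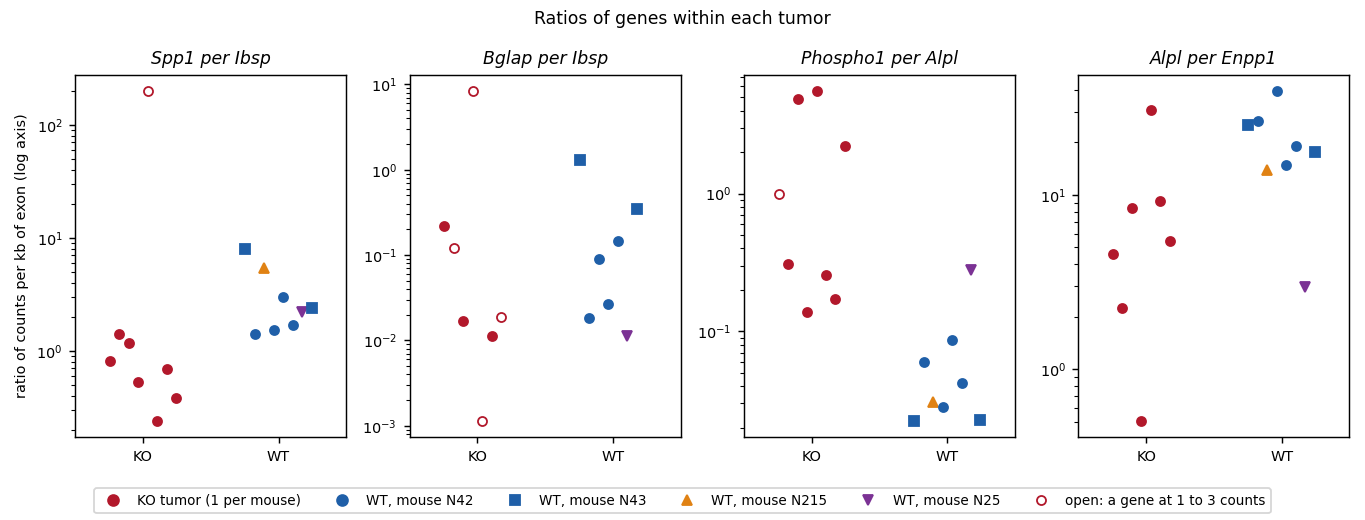
Ratios of counts per kilobase within each tumor for *Spp1*/*Ibsp*, *Bglap*/*Ibsp*, *Phospho1*/*Alpl* and *Alpl*/*Enpp1*, on log axes, with filled markers for tumors with more than 3 counts of both genes and open markers where either gene had 1 to 3. For *Spp1*/*Ibsp*, 7 KO tumors lie at 0.241 to 1.42, below or at the low end of the WT tumors (1.41 to 8.01), and Prince, at 199.5 on 2 counts of *Ibsp*, lies above all of them.

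Per kilobase, the order of the median levels differed between the groups. In WT, *Spp1* (1649 CPM per kb) and *Sparc* (1644) led, followed by *Ibsp* (754), *Alpl* (147), *Bglap2* and *Bglap* (57.9 each), *Ank* (41.7), *Smpd3* (12.6), *Enpp1* (6.50) and *Phospho1* (5.0). In KO, *Sparc* (322) led, followed by *Ibsp* (114), *Spp1* (108), *Ank* (23.3), *Alpl* (17.9), *Phospho1* (11.9), *Smpd3* (7.87), *Enpp1* (2.71), *Bglap* (1.75) and *Bglap2* (1.68). The ranges of neighboring genes overlapped at every step of both orders.

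Within WT, a pair of tumors stood apart from the rest. The tumors of N215 and N25 lay below all 6 tumors of N42 and N43 for 10 of 10 genes, where 14.8% of all tested genes did the same, and no test was made because this split was seen in the values. N42 and N43 overlapped, for example at 2623 to 3305 against 1556 to 3325 CPM of *Spp1*. Mouse and tumor site cannot be told apart in this comparison. N25 carried the lung genes and low *Sp7*, whereas N215 had *Sp7* at 144 CPM and *Runx2* at 58.7 CPM, with *Spp1* at 14.04, *Ibsp* at 3.23 and *Bglap* at 0. All 8 KO tumors lay below all 6 tumors of N42 and N43 for *Spp1*, *Sparc* and *Alpl*, 3 of 10 genes, where 2.70% of all tested genes did. The 6 tumors were set apart on the values of the same 10 genes, so these shares cannot be compared. With N215 and N25 included, none of the 10 genes separated KO from WT, where 0.363% of all tested genes did.

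The 4 tumors of mouse N42 shared a genotype and a host but not a site. *Spp1* differed among them by 1.26 times at most and *Alpl* by 1.69 times, while *Ank* differed by 8.01, *Bglap* by 9.52 and *Bglap2* by 17.7 times. The left limb tumor had the lowest *Bglap* (11.02 CPM) and *Sparc* of the mouse and its highest *Ank* (1052) and *Smpd3* (152).

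**Figure D4:**
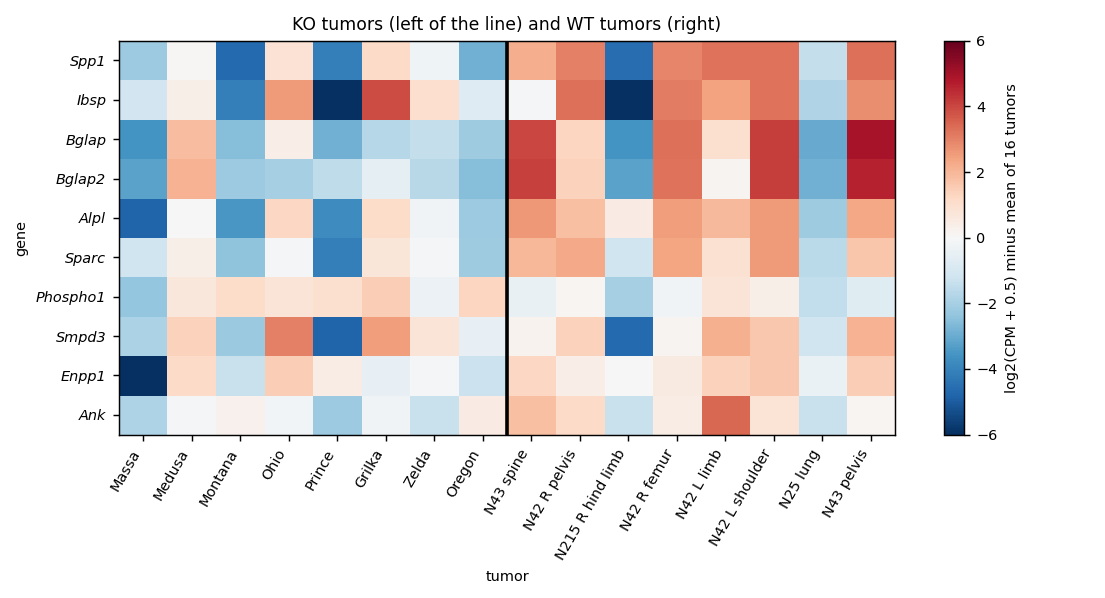
Centered level, log2(CPM + 0.5) minus the mean of the 16 tumors, of each gene (rows) in each tumor (columns), with KO left of the vertical line and colors from -6 to 6. On this TMM-scaled CPM, Massa, Montana and Prince are low for most genes, Medusa, Ohio and Grilka are the highest KO tumors, and N215 and N25 are the low WT tumors.

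Among the KO tumors, Medusa, Ohio and Grilka held the highest levels and Massa, Montana and Prince the lowest, with a mean centered log2 level over the 10 genes of 0.86, 0.86 and 0.84 against -3.24, -2.21 and -2.87. *Sp7* followed the same division, at 119, 219 and 226 CPM against 0, 3.80 and 0.123, while *Runx2* did not in Prince (141 CPM). Massa had lung, Montana muscle and Prince salivary gland genes at raised levels, and the part of these in the results was not tested. Without Massa and Grilka, the shallowest libraries, and without Montana, Oregon and Prince, none of the 10 genes was called.

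Other genes of mineralization were taken from a list of 22, of which 18 were tested. Of these, 3 passed in edgeR, 2 lower and 1 higher in KO, where 4.01% of all tested genes passed, and 13 of 18 had lower fitted levels in KO, where 44.1% of all tested genes did (median log2 fold change -0.72). *Mgp*, which encodes matrix Gla protein, an inhibitor of calcification, fell from 180 ± 83.3 CPM in WT to 34.3 ± 20.2 in KO (SD, n = 8 each; log2 fold change -2.33, SE 0.42, edgeR adjusted p = 0.00899). *Nt5e*, encoding the ectonucleotidase CD73 that makes adenosine, fell from 152 ± 118 to 26.0 ± 16.8 CPM (log2 fold change -2.53, SE 0.64, edgeR adjusted p = 0.0368). *Anxa6*, an annexin found in matrix vesicles, rose from 78.4 ± 29.3 to 197 ± 105 CPM (log2 fold change 1.36, SE 0.36, edgeR adjusted p = 0.0443). With counts summed per mouse none of the 3 passed, at log2 fold changes of -2.14 (*Mgp*, adjusted p = 0.183), -2.03 (*Nt5e*, 0.520) and 1.11 (*Anxa6*, 0.628). Over 28 alternatives, *Mgp* was called in 23 (adjusted p up to 0.280), *Nt5e* in 10 (up to 0.741) and *Anxa6* in 9 (up to 0.628), and *Nt5e* and *Anxa6* were also lost on leaving out single tumors such as Medusa (0.0509 and 0.0633). The most abundant of the list, *Anxa2* (log2 fold change -0.05, adjusted p = 0.964), *Dmp1* (-0.84, adjusted p = 0.736) and *Anxa5* (0.36, adjusted p = 0.665), did not pass in edgeR.

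Marker lists of the cells that such tissue could hold were read beside these values. None of the 7 osteoblast genes was called (4 higher, 3 lower in KO, median log2 fold change 0.28), and their sum ran from 502 to 55634 CPM in KO and from 2471 to 77180 in WT. *Runx2* (log2 fold change 0.31, adjusted p = 0.830) and *Sp7* (-0.25, adjusted p = 0.910) did not pass in edgeR. Osteoclast genes, 7 tested, were all lower in KO and none was called (median -1.97, sum 28.7 to 1944 CPM in KO and 63.2 to 8874 in WT). Of 8 macrophage genes, 6 fell in KO (*Adgre1*, *C1qa*, *C1qb*, *Cd68*, *Csf1r* and *Mrc1*), where 2.15% of all tested genes did, in the fit that takes tumors of a mouse as separate. Fits that allow for the mouse called 10 to 17 of all genes. The sum of the 8 ran from 192 to 2006 CPM in KO and from 615 to 2245 in WT. Cartilage genes, 4 tested, had none called (sum 0.920 to 613 CPM in KO and 9.57 to 501 in WT). Of 8 skeletal muscle genes, all had higher fitted levels in KO and none was called (median log2 fold change 3.03). Their sum ran from 9.01 to 281442 CPM in KO and from 279 to 29044 in WT. The KO tumors Oregon and Montana held the highest sums, while the median sum was lower in KO (364 CPM) than in WT (4772 CPM). Of 3 erythroid genes tested, 1 was higher and 2 were lower in KO (sum 1.26 to 1410 CPM in KO and 5.89 to 479 in WT). The part of any of these in the levels of the 10 genes was not tested.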

How the data were processed

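The series measured RNA of 16 mouse osteosarcomas, 8 KO and 8 WT. The deposited table holds raw counts of reads per gene made by the authors. Short reads of RiboZero-treated RNA were aligned by them with Novoalign 2.08.01 to mm10 plus splice junctions from Ensembl transcripts, the best of several permitted alignments was kept per read, and USeq counted reads per gene before DESeq2 1.26.0 (versions per the submitters' processing notes). A read that fits *Bglap* and *Bglap2* equally well may therefore count for either. The strand setting is not given in the sources used here. Total counts ran from 1109487 to 16962329.

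Counts were scaled by TMM and tested in edgeR 4.0.16 (R 4.3.3) with the quasi-likelihood test, KO against WT, without covariates, on 15413 genes that passed filterByExpr (minimum count 10, minimum total 15), with Benjamini-Hochberg adjusted p under 0.05 as the threshold. The 9641 other genes were not tested. The biological coefficient of variation was 70.4%. CPM values use TMM-scaled totals. Tumors of a WT mouse entered as separate samples, and the correlation within mice estimated by limma 3.58.1 was 0.76, which the main test leaves out, and p-values measure only the spread between these tumors. DESeq2 1.42.0, limma-voom with mouse as a random effect, counts summed per mouse, 1 tumor per mouse, other scalings, no filter, library depth as covariate and leaving out tumors were the alternatives. The fits were also run on simulated counts drawn without a mouse effect. That run cannot check the main test for tumors that share a mouse. No 2 libraries agreed within sampling noise (chi-square per degree of freedom at least 40.1).

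Named genes were the 10 members, list members past the threshold, at most the 3 most abundant of each list, and the 5 genes most like the members' mean pattern. Other genes named were singled out after their values were seen. Members and lists were chosen with earlier results of these data known. Positions are GENCODE vM21 (GRCm38), which matched 24974 of 25054 genes. Promoters are RefSeq's.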

Additional observations from a re-analysis of the deposited data

Results flagged for a closer look

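Of 20 groups of 8 tumors checked for a sample far from the rest (10 genes in KO and WT), 4 were marked, all for a high value. The check used CPM without a log transform. Its chance rate of about 1 in 20 groups holds for normally distributed values, so the number marked cannot be compared with that rate. *Ibsp* in the KO tumor Grilka was 3888 CPM, against 1484 for the next KO tumor, Ohio. That order depends on the scaling, because on unscaled library totals Ohio lay above Grilka. *Bglap* in the KO tumor Medusa was 20.8 CPM, against 7.41, and *Bglap2* in the same tumor was 18.7 CPM, against 2.66, and these genes share sequence. *Ank* in the WT tumor of the N42 left limb was 1052 CPM, against 336 for the next WT tumor. The gap to the nearest value was over 0.526 of the group's range in each case.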

How the results depend on the processing

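No paired analysis was possible because KO and WT tumors came from different mice and the labels give no shared replicate numbers. Of 15413 genes, edgeR called 618 (287 higher, 331 lower in KO). The totals, then higher and lower, were 2517, 1559 and 958 with DESeq2, 17, 7 and 10 with limma-voom, 10, 6 and 4 with counts summed per mouse, 15, 6 and 9 with 1 tumor per mouse, 8, 5 and 3 without mouse N42, and 99, 59 and 40 with library depth as a covariate. Higher calls were 450 without the lung tumor and 491 without Massa and Grilka, and lower calls were 210 without Montana, Oregon and Prince. Leaving out each tumor in turn gave 252 to 1348 calls, 102 to 650 higher and 150 to 698 lower. Of the 10 genes, DESeq2 called 6, leaving out each tumor gave 0 to 2, and the other alternatives gave 0. Leaving out N215 let *Spp1* (-3.09, edgeR adjusted p = 0.0416) and *Bglap* (-3.82, adjusted p = 0.0449) pass, and leaving out Medusa *Bglap2*. Over all genes these 2 fits called 923 and 482. Of the other mineralization genes, 3 were called, 1 without Massa and Grilka, 1 without Montana, Oregon and Prince, 0 with limma-voom, summed counts, 1 tumor per mouse, library depth or without N42, and 1 to 5 leaving out each tumor. Signs turned for *Ibsp* (0.10 summed per mouse, 0.24 with 1 tumor per mouse, 0.70 without N42), *Enpp1* (0.43 with depth) and *Smpd3* (-0.43 without Ohio, -0.13 without Grilka, up to 0.41 leaving out any other tumor). The cause was not tested. The 40 mean levels moved by less than 1 SD under other scalings. The order of single tumors did change on unscaled totals, for genes that include *Ibsp*, *Phospho1*, *Smpd3*, *Spp1*, *Sparc* and *Enpp1*. Grilka was then no longer the highest KO tumor for *Spp1* or *Sparc*. The highest *Spp1* was then in the N42 left limb tumor, and *Enpp1* in Ohio lay above every WT tumor. At 3 counts or fewer, depth limits *Bglap* and *Bglap2* in Massa and Grilka, and *Alpl*, *Phospho1* and *Enpp1* in Massa.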

Other observations

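Genes outside the list were ranked by the likeness of their pattern to the mean centered log2 level of the 10 genes over 16 tumors, which share depth, scaling and, in WT, mice. The 5 most alike were *Bmp8a* (Pearson r 0.97, Spearman rho 0.96), *Chst11* (0.97 and 0.94), *Oxct2a* (0.96 and 0.86), *Megf10* (0.95 and 0.88) and *2610300M13Rik* (0.95 and 0.84). *Bmp8a* encodes a bone morphogenetic protein and *Chst11* a chondroitin sulfotransferase. *Oxct2a* lies within the span of *Bmp8a* on chromosome 4 on the same strand, so their reads may not be separate. Among the 10 genes, *Spp1* was nearest the shared mean (r 0.95, rho 0.91), which contains it, and *Phospho1* had the lowest r over all tumors (r 0.27, rho 0.03). Within WT the r of *Phospho1* was 0.84, against 0.70 for *Ank*, and within KO it was 0.38.

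*Ibsp* and *Smpd3* moved together over the 16 tumors (r 0.93, rho 0.84), with r of 0.95 within KO and 0.94 within WT, as a description without a test. *Bglap* and *Bglap2* had r of 0.95 over all tumors and 0.77 within KO, and *Spp1* and *Sparc* 0.92 over all. *Mepe*, a matrix phosphoglycoprotein gene of osteocytes that was not tested, was at 117 CPM in Ohio and 13.1 in Oregon against at most 2.74 in the other 14 tumors, a gene singled out after its values were seen. *Dmp1*, another osteocyte matrix gene, ran from 0 in Prince to 364 CPM in Grilka in KO and from 0.223 in N215 to 519 in the N42 left limb tumor in WT.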
